A study of Mus musculus with 6 samples.

Results

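Lgi1, Syn2, Scgb1c1 and Dct are 4 genes best known from brain, secretory epithelium or pigment cells whose signals were higher in ventricles that overexpress the microRNA miR-499 than in wild-type ventricles. They were chosen by their higher level in the transgenic mice on these same arrays and by their known roles, out of 19938 genes with a probe set of 1 gene symbol. The differences between the groups are therefore given for these 4 genes as a description, with no test. RNA came from the cardiac ventricles of 3 miR-499 transgenic mice (TG-17) and 3 wild-type littermates (WT), all at postnatal day 17, and each mouse had its own array. TG-17 is a single transgenic line, made in FVB/NCrl embryos, in which the alpha-myosin heavy chain (Myh6) promoter drives a fragment with the mouse miR-499 precursor in cardiomyocytes. No treatment is named and the sex of the mice is not given. The genotype stands in the sample labels and the age in the series design, whereas the line, the littermate controls, the strain and the promoter come from the study's text. The values are log2 signals per probe set as the authors normalized them with RMA, a method that corrects background, equalises the arrays and summarises the probes of each probe set. The median array signal was 6.89 to 6.91 in TG-17 mice and 6.93 to 6.95 in WT mice. The Mir499 probe set read 9.31, 9.33 and 8.87 in TG-17 mice against 5.48, 5.34 and 5.68 in WT mice, so every array carried the genotype of its label.

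Neurons release the leucine-rich protein Lgi1, which bridges the receptors Adam22 and Adam23 across the synapse, and its loss causes inherited epilepsy in humans. Syn2 encodes a synapsin, one of the phosphoproteins that tether synaptic vesicles to each other and to actin. Scgb1c1 belongs to the secretoglobins, small proteins secreted by mucosal and glandular epithelia. Dct encodes dopachrome tautomerase, an enzyme of melanin synthesis in melanosomes that also serves as an early marker of the melanocyte lineage. Heart tissue is dominated by cardiomyocytes, fibroblasts and endothelium, and it also holds nerve fibres with their Schwann cells and a small number of melanocyte-like cells.

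The microRNA raised in these mice and the start regions of the 4 genes are shown first, as background. Whether the microRNA acts on any of the 4 genes was not tested. The mature miR-499-5p of the mouse lies on the plus strand of chromosome 2 (RefSeq, GRCm38.p6, chr2:155622893-155622913), within a myosin heavy chain gene, and the capitals mark its seed, bases 2 to 8.
mmu-miR-499-5p: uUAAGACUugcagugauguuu

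In the RefSeq table of GRCm38.p6, windows of 300 bases (250 before and 50 after each start) were matched for all 4 genes, with a second, internal start for Syn2. GC boxes (GGGCGG on either strand, a motif bound by Sp1-type factors) and the E-box CATGTG (either strand, a motif that the pigment cell factor Mitf can bind) were searched. The stretches before the start that hold a GC box or this E-box are printed 5′ to 3′ on the strand of the gene, with the matches in capitals, to show what the start regions share.
Lgi1 (chr19:38264447-38264484, plus strand): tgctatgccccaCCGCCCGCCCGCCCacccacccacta
Syn2 (chr6:115134853-115134901, plus strand): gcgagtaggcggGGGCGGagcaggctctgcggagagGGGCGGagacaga
Scgb1c1 (chr7:140845490-140845519, plus strand): gagaggtatgccCCGCCCccgggcaaggtg
Dct, distal E-box (chr14:118052461-118052490, minus strand): gcttggctgggaCACATGagcccaataaag
Dct, proximal E-box (chr14:118052379-118052408, minus strand): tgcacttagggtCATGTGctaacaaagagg
Dct, GC box (chr14:118052316-118052345, minus strand): tctcccatccctCCGCCCcccccccccccc

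The Lgi1 stretch holds 3 overlapping GC boxes on the opposite strand, the first starting 228 bases before the gene's start, and a GC box also matched in the windows of the other genes, except the second Syn2 window. A GC box was present in 35.7% of all 32851 promoter windows in the table, so its presence in each gene is common. The E-box CATGTG matched only in Dct among the 4 genes, at 232 and 150 bases before the start, and it was present in 14.2% of all windows. The other E-box searched, CACGTG, matched in none of these windows and was present in 7.15% of all windows. The TATA box TATAAA, the GATA site AGATAA and the muscle elements known as the SRF CArG box and the MEF2 site matched in none of these windows, and they were present in 13.6%, 11.2%, 1.63% and 3.19% of all windows. The TEAD site CATTCC matched once, in the second Syn2 window, and in 14.7% of all windows. These are matches of letters and were not tested as binding sites.

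Lgi1, the secreted synaptic ligand, had log2 values of 8.38, 8.43 and 8.59 in TG-17 mice against 7.69, 7.88 and 7.93 in WT mice. Its lowest TG-17 value lay 0.45 above its highest WT value, which was more than the spread within either group. The mean was 8.47 ± 0.11 in TG-17 and 7.83 ± 0.12 in WT (SD, n = 3 each), a 1.55-fold difference, which placed Lgi1 at rank 15 of 19938 genes ordered by log2 fold change. Lgi1 lies on chromosome 19 from 38264687 to 38308939 on the plus strand (GRCm38.p6).

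Syn2, the vesicle-tethering synapsin, had log2 values of 7.57, 7.83 and 7.56 in TG-17 mice against 7.16, 6.95 and 7.13 in WT mice. The second TG-17 mouse was the highest and the second WT mouse the lowest, and the groups were separated by 0.40. The mean was 7.65 ± 0.16 in TG-17 and 7.08 ± 0.11 in WT (SD, n = 3 each), or 1.49-fold, at rank 22. Syn2 spans 147725 bases of chromosome 6, from 115134902 to 115282626 on the plus strand.

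Scgb1c1, the secretoglobin, had log2 values of 8.45, 8.44 and 8.51 in TG-17 mice against 7.80, 8.13 and 8.0 in WT mice. The TG-17 mice lay within 0.07 of each other, whereas the WT mice spread over 0.33, and the second WT mouse came within 0.31 of the lowest TG-17 mouse. The mean was 8.47 ± 0.038 in TG-17 and 7.98 ± 0.17 in WT (SD, n = 3 each), or 1.41-fold, at rank 47. The gene spans 1205 bases of chromosome 7, from 140845565 to 140846769 on the plus strand.

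Dct, the melanin enzyme, had log2 values of 6.03, 5.78 and 5.76 in TG-17 mice against 5.41, 5.34 and 5.20 in WT mice. The first TG-17 mouse stood above the other two, and the groups were separated by 0.36. The mean was 5.86 ± 0.15 in TG-17 and 5.32 ± 0.11 in WT (SD, n = 3 each), or 1.46-fold, at rank 25. Dct lies on chromosome 14 from 118012790 to 118052246 on the minus strand.

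**Figure D1:**
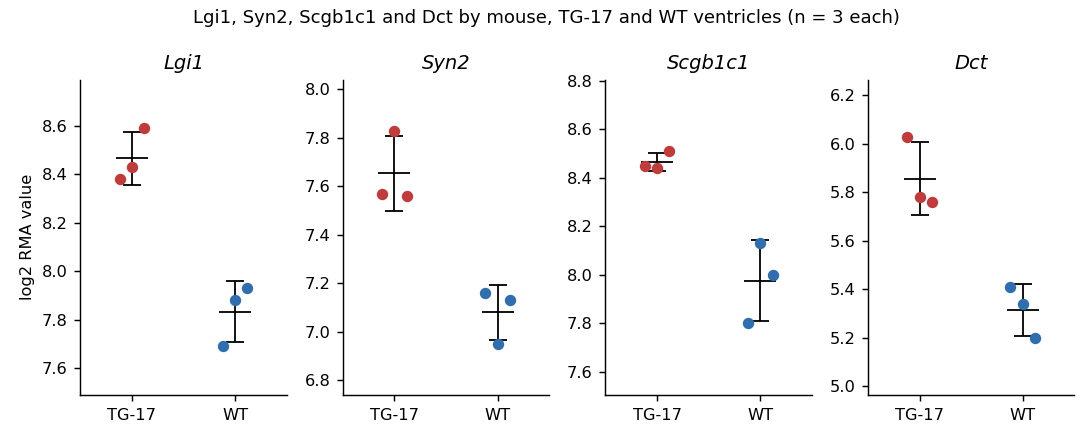
Log2 RMA values of Lgi1, Syn2, Scgb1c1 and Dct in 3 TG-17 (red) and 3 WT (blue) ventricles. Each point is 1 mouse, the long bar marks the mean of 3 mice with whiskers of 1 SD, and each panel spans the same height on the log2 axis. In all 4 panels the groups are separate, with TG-17 on top and gaps of 0.31 to 0.45.

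All 4 genes were measured by 1 probe set each, so no second probe set checks any of them. For 4 of 4 genes every TG-17 mouse exceeded every WT mouse, against 12.2% of all genes, and this separation follows from how the genes were chosen. At B above 0, the less stringent log odds cut-off of the study's methods, 1 of the 4 passed, Lgi1, beside 0.13% of all genes in this direction and 0.366% of all probe sets in either direction. For the same reason nothing is read from that count. With an expected share of changes of 0.05, 4 of 4 passed, beside 714 of all 35556 probe sets in either direction. In a fit of only the probe sets listed in the platform annotation, 4 of 4 also passed, beside 156 probe sets in either direction. That fit covered fewer than 35556 probe sets, and its total is not given here, so 156 cannot be read as a share. With any 1 mouse left out 0 of 4 passed, beside 29 to 112 of all 35556 probe sets in either direction. Nothing is read from these counts either. The pooled SD within groups was 0.117 to 0.136 for the 4 genes and exceeded that of 72.8 to 81.1% of all genes, so they varied more between mice of 1 group than most genes. In bulk ventricle, more cells of a type and more RNA per cell cannot be told apart.

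Against the bulk of the array the 4 genes did not share a level. The Lgi1 probe set was at percentile 73.0 to 75.8 of all 35556 probe sets in TG-17 mice and 62.6 to 66.4 in WT mice. Scgb1c1 was at percentile 74.0 to 74.8 in TG-17 mice and 64.4 to 69.4 in WT mice. Both therefore read above most of the array in WT ventricles too. Syn2 was at percentile 61.0 to 65.4 in TG-17 mice and 50.1 to 53.6 in WT mice, where it was between 0.00 and 0.20 above the array median. Among the 19938 genes alone, Syn2 was at percentile 55.6 to 60.5 in TG-17 mice and 44.4 to 47.8 in WT mice. Dct lay in the lower part of the array, at percentile 29.4 to 33.9 in TG-17 mice and 19.6 to 22.5 in WT mice. A probe set's signal also depends on how well its probes bind, so these places describe signal on the array and not the number of transcripts.

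The 1035 probe sets of olfactory receptor genes, which are not expected to be active in ventricle, gave a second scale. Their median was 4.46 to 4.57 in TG-17 mice and 4.54 to 4.56 in WT mice. Of these probe sets only 1 or 2 read as high as Lgi1 or higher in TG-17 mice and 4 to 6 in WT mice. For Scgb1c1 the numbers were 1 or 2 in TG-17 mice and 2 to 6 in WT mice, and for Syn2 5 to 7 in TG-17 mice and 12 to 19 in WT mice. Signal of these 3 genes was thus above that of nearly all olfactory receptor probe sets in WT hearts as well, so the name non-cardiac fits what they are known for but not an absence of signal. Dct was different, since 87 to 122 olfactory receptor probe sets read as high in TG-17 mice and 209 to 269 in WT mice. Its values in all 6 mice lay below the 95th percentile of the olfactory receptor set, which was 6.33 to 6.38 in TG-17 mice and 6.35 to 6.42 in WT mice. The Dct signal was therefore not set apart from that of genes not expected in ventricle, and its fold describes the RMA scale only. A place above that percentile was common among genes related to Lgi1 and Syn2, but not among those related to Scgb1c1. Of the lists examined below, 13 of 20 genes of the Lgi1 system and 15 of 25 of the synaptic vesicle list had a mean above it. In the list of secretoglobins and gland secretions it was 3 of 17, Aqp5, Lyz1 and Scgb3a1. Scgb3a1, the only other secretoglobin above it, averaged 6.31 in TG-17 and 6.49 in WT.

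**Figure D2:**
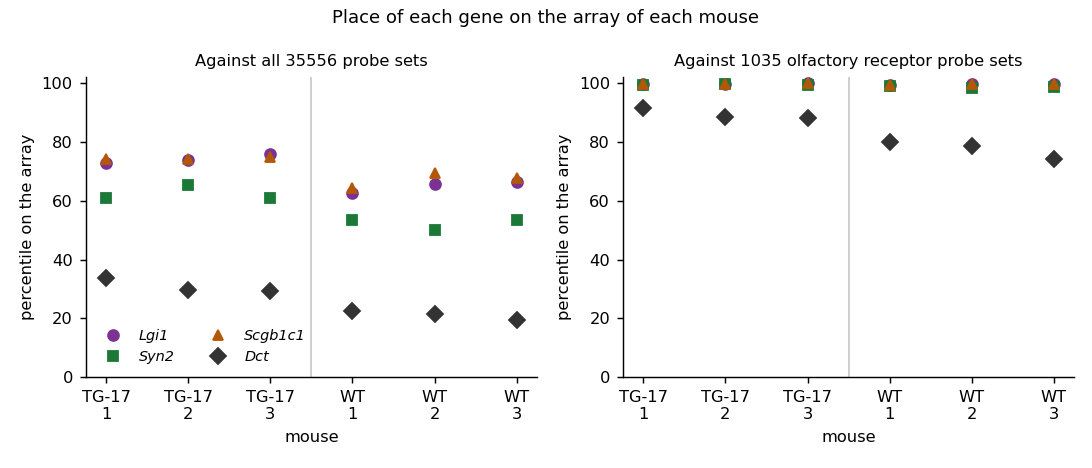
Percentile of each gene's log2 value on the array of each mouse (TG-17 mice left, WT mice right), among all 35556 probe sets (left panel) and among the 1035 olfactory receptor probe sets (right panel). Lgi1, Syn2 and Scgb1c1 lie at or above percentile 50.1 of the array in every mouse and at or above percentile 98.2 of the olfactory receptor set, whereas Dct lies between 19.6 and 33.9 on the array.

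Related genes were then examined in lists, with the same limma fit across all probe sets. None of the 166 listed genes that were measured, cell type markers included, passed B above 0, against 0.13% of all genes higher and 0.211% lower in TG-17. At an unadjusted p under 0.05 from limma, 6.65% of all genes were higher and 8.76% were lower, which is the scale for the counts that follow. SE stands for the standard error of a log2 fold change. The median log2 fold change over all genes was -0.018.

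Among 20 genes of the Lgi1 system, 0 were higher and 2 were lower at an unadjusted p under 0.05, with a median log2 fold change of -0.008. The family members Lgi2, Lgi3 and Lgi4 had log2 fold changes of -0.078, 0.10 and -0.085, with standard errors of 0.067, 0.10 and 0.061, and overlapped between the groups. The Lgi1 receptors Adam22 and Adam23 had log2 values of 6.08 ± 0.055 and 7.44 ± 0.13 in TG-17 against 6.04 ± 0.044 and 7.44 ± 0.14 in WT (SD, n = 3 each). The 2 lower genes were Kcna2, a potassium channel gene at -0.19 (SE 0.064, limma adjusted p = 0.275), and Cacng2, a regulatory subunit of AMPA receptors at -0.16 (SE 0.062, limma adjusted p = 0.302). After each array was centred on its median 0 of the 20 were lower and 2 were higher at that p, beside 4.04% of all genes lower and 12.9% higher after the same centring.

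Of 25 measured genes of the synapsin and synaptic vesicle list, 0 were higher and 5 were lower at an unadjusted p under 0.05, with a median of -0.058. Syn1 read 6.19, 6.01 and 5.97 in TG-17 mice against 6.09, 6.11 and 5.99 in WT mice, and Syn3 read 6.66, 6.61 and 6.52 in TG-17 mice against 6.56, 6.69 and 6.71 in WT mice, so both overlapped between the groups. Slc17a7, the vesicular glutamate transporter of excitatory neurons, was at -0.29 (SE 0.059, limma adjusted p = 0.224), and Sv2a, a vesicle membrane protein, at -0.37 (SE 0.11, limma adjusted p = 0.254). Vamp1, a SNARE protein, and Rph3a, a Rab3 effector, were at -0.24 and -0.20 (SE 0.079 and 0.065).

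Of 17 genes for secretoglobins and gland secretions, 0 were higher and 4 were lower at an unadjusted p under 0.05, with a median of -0.076. The club cell secretoglobin Scgb1a1 had log2 values of 4.01, 4.05 and 3.94 in TG-17 mice against 4.04, 4.0 and 3.92 in WT mice, below the olfactory receptor median in every mouse. Among the others, Scgb3a1 and Scgb3a2 differed by -0.18 and -0.17 on the log2 scale (SE 0.059 and 0.070), Scgb1b2 by 0.13 and Scgb2b2, Scgb2b24 and Scgb2b27 by -0.17, -0.057 and -0.25. Ltf, which encodes the secreted iron-binding protein lactoferrin, and Pigr, the receptor that carries immunoglobulins across epithelia, were at -0.28 and -0.30 (SE 0.050 and 0.070, limma adjusted p = 0.221 and 0.226).

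Of 14 genes of melanin synthesis and the melanosome, 0 were higher and 2 were lower at an unadjusted p under 0.05, with a median of -0.042. Tyr, the tyrosinase that starts melanin synthesis, read 4.70, 4.80 and 5.05 in TG-17 mice against 4.77, 4.78 and 5.0 in WT mice. Tyrp1, the other enzyme closely related to Dct, read 5.41, 5.49 and 5.35 in TG-17 mice against 5.56, 5.52 and 5.29 in WT mice. Both overlapped fully between the groups. The 2 lower genes were Trpm1, a cation channel first described in melanocytes, and Rab27a, which moves melanosomes, at -0.18 and -0.20 (SE 0.070 each).

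Of 9 regulators of the melanocyte lineage, 2 were higher and 1 was lower at an unadjusted p under 0.05. On the log2 scale the Kit ligand gene Kitl differed by 0.20 (SE 0.052, limma adjusted p = 0.235), the endothelin receptor gene Ednrb by 0.22 (SE 0.086, limma adjusted p = 0.311) and the neural crest factor gene Sox10 by -0.20 (SE 0.067, limma adjusted p = 0.271). Mitf, the master regulator of melanocytes, which is also expressed in heart muscle, differed by 0.057 (SE 0.049) on its brighter probe set and by 0.40 (SE 0.12, limma adjusted p = 0.257) on its dimmer one. Of 9 genes of the Rest complex, which silences neuronal genes outside neurons, 1 was higher and 1 was lower at that p. Rest itself read 8.12, 8.16 and 8.36 in TG-17 mice against 8.19, 8.19 and 8.19 in WT mice. The higher one was the deacetylase gene Hdac2 (0.16, SE 0.053, limma adjusted p = 0.270). The lower one was the corepressor gene Rcor2 (-0.41, SE 0.16, limma adjusted p = 0.314). Rcor2 read 7.38, 7.27 and 7.32 in TG-17 mice against 8.11, 7.46 and 7.65 in WT mice, where the first mouse stood well above the others.

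Marker lists of the cell types in which the 4 genes are best known did not read higher in TG-17. The mean log2 value over 17 measured neuron markers was 6.10 to 6.14 in TG-17 mice and 6.16 to 6.21 in WT mice, and 0 of them were higher and 3 lower below that p. It was 6.55 to 6.66 in TG-17 mice and 6.66 to 6.69 in WT mice over 9 Schwann cell and glia markers, with 0 higher and 3 lower. Over 7 melanocyte markers it was 6.22 to 6.38 in TG-17 mice and 6.31 to 6.35 in WT mice, with 0 higher and 0 lower. Over 13 markers of secretory and airway epithelium it was 6.0 to 6.08 in TG-17 mice and 6.14 to 6.17 in WT mice, with 0 higher and 3 lower. Of these markers 8 of 17, 5 of 9, 2 of 7 and 5 of 13 had a mean above the 95th percentile of the olfactory receptor probe sets. The neuron markers Tubb3, Elavl4 and Th averaged 5.53, 4.75 and 6.20 in TG-17 against 5.50, 4.76 and 6.20 in WT. The lower neuron markers included Nefl, a neurofilament subunit at -0.33 (SE 0.10, limma adjusted p = 0.265), and Stmn2, a growth cone protein at -0.20 (SE 0.053, limma adjusted p = 0.234). Ventricular cardiomyocyte markers averaged 13.73 to 13.75 in TG-17 mice and 13.72 to 13.74 in WT mice, and 11 of 11 lay above that percentile, which fits the label of the tissue. Below the same unadjusted p, 0 of 8 fibroblast markers differed, 1 of 7 endothelial markers was higher, and of 7 leukocyte markers 1 was higher and 1 lower.

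The downward counts of these lists stand beside a lower position of dim probe sets in the TG-17 arrays. The lower quartile of all probe sets was 5.51 to 5.52 in TG-17 mice and 5.55 to 5.57 in WT mice, and of the olfactory receptor probe sets 19 were higher and 87 lower below that p, with a median log2 fold change of -0.049. The part of this shift in the counts was not tested. With each array centred on its median, the medians of the neuron, melanin and melanocyte marker lists turned to 0.010, 0.009 and 0.035, and after a second quantile normalization to 0.013, 0.008 and 0.011. Those of the synaptic vesicle, secretoglobin, Schwann cell and epithelium lists stayed below 0, at -0.007, -0.025, -0.040 and -0.029 after centring and at -0.017, -0.036, -0.037 and -0.025 after the second quantile normalization. Centring also brought 4 of 8 fibroblast, 3 of 7 endothelial and 3 of 11 cardiomyocyte markers to a higher level at an unadjusted p under 0.05, against 0, 1 and 0 without it. Of all genes 12.9% were higher at that p after centring. After the second quantile normalization 0, 1 and 0 of these markers were higher and 1 cardiomyocyte marker was lower, beside 5.53% of all genes higher. Under both scalings none of the listed genes passed B above 0.

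**Figure D3:**
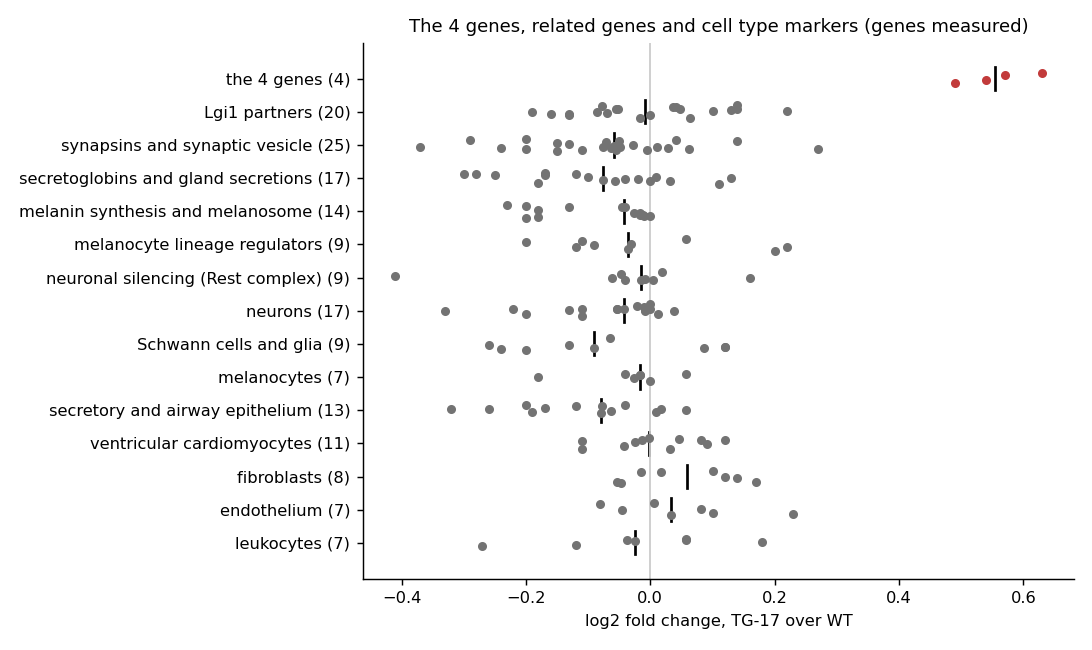
Log2 fold change of TG-17 over WT for the 4 genes (red) and for each list of related genes or cell type markers (grey, 1 point per gene, the probe set with the highest mean), with the number of genes measured in brackets and the list median as a black bar. No plotted point of a related gene or marker exceeds 0.27, while the 4 genes, which were chosen for being higher, lie between 0.49 and 0.63. The dimmer Mitf probe set, at 0.40, is not plotted.

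The genes next to the 4 were examined by position in the RefSeq table, taking the nearest 2 protein-coding genes on each side and any gene that overlaps. Of 21 such genes 15 were measured, none passed B above 0 and 2 were at an unadjusted p under 0.05, Timp4 and Tgds. Timp4, an inhibitor of matrix metalloproteinases with a known high level in heart, lies wholly inside Syn2 on the opposite strand, on chromosome 6 from 115244444 to 115252205. It read 7.48, 7.63 and 7.76 in TG-17 mice against 7.03, 7.28 and 7.44 in WT mice, a difference of 0.37 (SE 0.12, limma adjusted p = 0.271). The lowest TG-17 mouse was only just above the highest WT mouse. Syn2 was highest in the second TG-17 mouse and Timp4 in the third. Pparg, on the far side of Syn2, differed by 0.21 on the log2 scale (SE 0.12, limma adjusted p = 0.435), and the groups overlapped. Probe positions were not used here, so whether the Syn2 and Timp4 signals share RNA was not tested.

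At the other loci no neighbour had a log2 fold change above 0.13. Around Lgi1, the nearest measured genes Fra10ac1 and Slc35g1 were at -0.006 and -0.11 (SE 0.055 and 0.097). Odf3, which starts 1147 bases after the end of Scgb1c1, was at -0.16 (SE 0.071) and Urah on the other side at -0.23 (SE 0.098). The noncoding gene C330022C24Rik overlaps the start of Scgb1c1 on the opposite strand and was not named on the array. Next to Dct, the glypican gene Gpc6 was at 0.023 (SE 0.047) and Tgds, a nucleotide sugar dehydratase gene, at 0.13 (SE 0.050, limma adjusted p = 0.302).

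**Figure D4:**
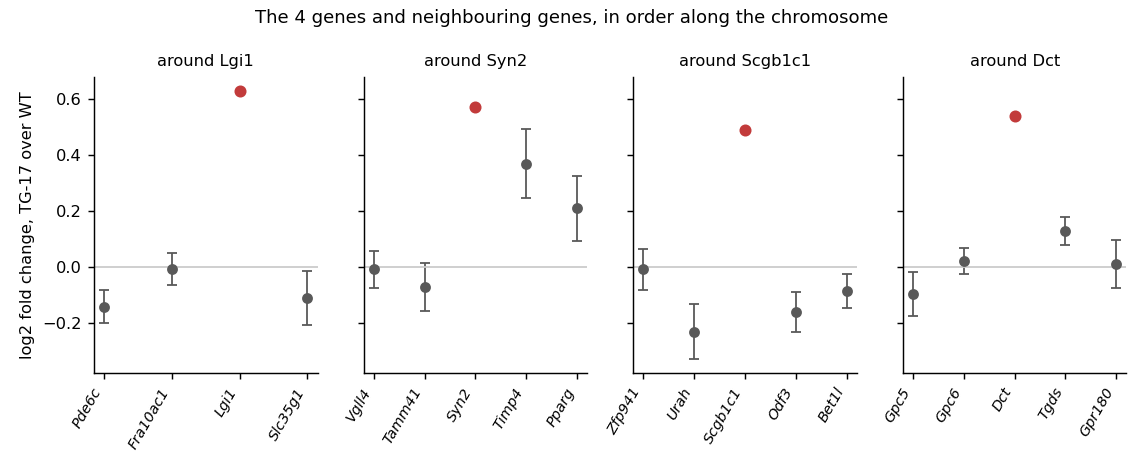
Log2 fold change of TG-17 over WT for each of the 4 genes (red) and its measured neighbours (grey, whiskers are 1 standard error from limma), in order along the chromosome and not to scale. Timp4, inside Syn2, is the neighbour with the highest value, 0.37.

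For each of the 4 genes the 3 genes with the most similar values over the 6 mice were found, by the root mean square distance between mean-centred log2 values among all probe sets with 1 gene symbol. Lgi1 was closest to Ppp1r3c, whose product directs a phosphatase to glycogen (distance 0.046), then to Fgl2 (0.059) and Agt, the angiotensin precursor gene (0.068). Scgb1c1 was closest to Ugp2, which makes UDP-glucose (0.046), then to the endothelial transcription factor gene Sox17 (0.057) and Dusp18 (0.063). Syn2 was closest to Prune2 (0.072), Phlda1 (0.073) and Gadd45g (0.076), and Dct to Lpcat2b (0.088), Epha4 (0.10) and Gnb3 (0.10). None of these 12 genes is among the 4 themselves, and no gene was shared between the sets. The 4 genes peaked in different TG-17 mice, the third for Lgi1 and Scgb1c1, the second for Syn2 and the first for Dct. A search for likeness over 6 mice in 2 groups returns genes that were also higher in TG-17, so it describes these arrays only.

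**Figure D5:**
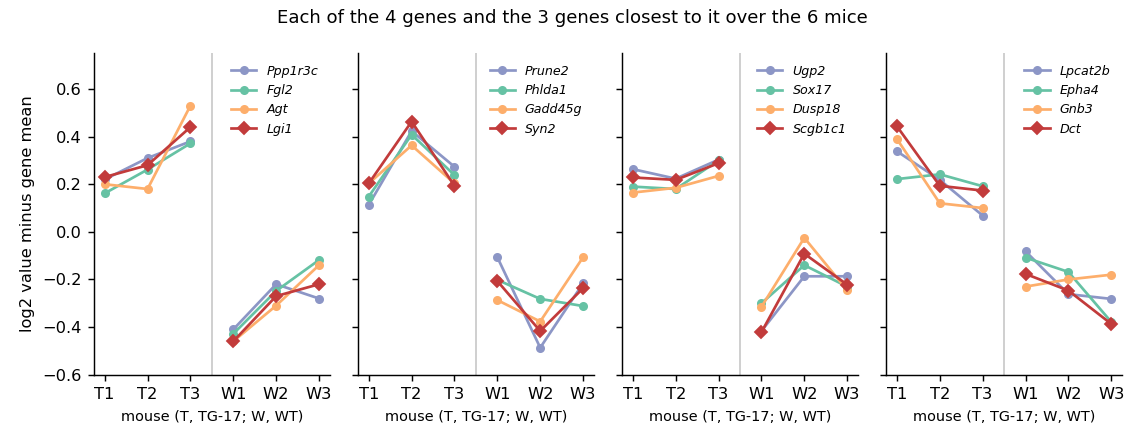
Log2 value minus the gene's own mean over the 6 mice, for each of the 4 genes (red diamonds) and its 3 closest genes (circles). T1 to T3 are the TG-17 mice and W1 to W3 the WT mice, and lines only join the points of 1 gene within a group. The closest genes follow their gene within a root mean square distance of 0.046 to 0.10.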

How the data were processed

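The authors hybridised ventricular RNA of 3 TG-17 and 3 WT mice to 6 Affymetrix Mouse Gene 1.0 ST arrays and deposited log2 values per probe set, attributed to RMA in the submitters' processing notes. The sources used here give neither the version of RMA nor a filter. All 35556 probe sets and 6 columns were used, with 0 columns left out. Of the probe sets 21789 had 1 gene symbol in the platform annotation, 1621 several and 12146 none, and for 21698 of the first the Entrez identifier was found in RefSeq (GRCm38.p6), with 0 symbols changed. A gene was represented by its probe set with the highest mean.

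Using limma 3.58.1 (R 4.3.3), 1 model of TG-17 minus WT was fitted to all probe sets, p-values were adjusted by Benjamini-Hochberg, and B took 0.01 as the expected share of changes. The fit was tested on simulated data. The mice are separate animals, the number of arrays limits the precision, and no 2 arrays were duplicates (r = 0.990 to 0.994 across probe sets). The 4 genes and the gene lists were chosen with earlier results of these data known. Genes were named by a rule: the 4 genes, close family members, up to 4 genes per list with the smallest p, neighbours, and the 3 most alike; Tubb3, Elavl4 and Th, Adam22, Adam23, Rest and Mitf were added after their values were seen. Of 173 listed genes 7 were not found with 1 gene symbol. The fit was repeated without dim probe sets, on the probe sets listed in the platform annotation, and after centring or renewed quantile normalization. It was also repeated with trended or robust moderation, weighted arrays or the mouse number as a block, without each mouse, and with an expected share of 0.05. After subtraction of the olfactory receptor median on the linear scale, only the fold changes of the 4 genes were computed, with no fit. Protein sequences were not used here.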

Additional observations from a re-analysis of the deposited data

How the results depend on the processing

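The log2 fold changes of Lgi1, Syn2 and Scgb1c1 moved by less than the SD between mice in each alternative, and that of Dct did so except after subtraction of the olfactory receptor median, where it was 1.11, from values that lie within the olfactory receptor signals. With 1 mouse left out they were 0.56 to 0.68 for Lgi1, 0.48 to 0.62 for Syn2, 0.40 to 0.57 for Scgb1c1 and 0.46 to 0.59 for Dct. B was above 0 under 9 of 15 alternative fits for Lgi1, 4 for Syn2, 3 for Scgb1c1 and 4 for Dct, but in none of the 6 fits that left out a mouse. The subtraction is not among these fits. The number of probe sets at B above 0, 130 in the fit described, was 714 with an assumed share of 0.05, 287 with an intensity trend, 69 with a replicate block and 29 to 112 with 1 mouse left out, with 29, 51, 56 and 37 without TG-17 replicates 2 and 3 and WT replicates 1 and 2. By limma's adjusted p below 0.05 the count was 2, and it was 26 with an intensity trend, 6 among listed probe sets, 0 with a replicate block and 0 to 1 with 1 mouse left out. Of the related genes and markers, 0 passed B above 0 in the fit described, 2 among listed probe sets (Ltf and Cd3e) and 3 with an assumed share of 0.05, an alternative chosen after seeing the data (Ltf, Cd3e and Slc17a7), all lower in TG-17. The cause of these moves was not tested. Of the probe sets at B above 0, 42.3% were higher in TG-17 without and 70.6% after centring. The mouse numbers are not said to mark litters, so they were not used as pairs in the fit described. The correlations of same-numbered mice's deviations were 0.024, 0.000 and 0.057. They were not set beside those of differently numbered mice, so they cannot decide whether the numbers pair the samples. Without subtraction of the olfactory receptor median the log2 fold change of Dct was 0.54. Its size thus depends on the background taken, and the background of this probe set is not known.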
